A study of Mus musculus with 4 samples.

Results

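The erythroid effector genes are 9 genes, most with products known from red cells, chosen by gene symbol: Car1, Car2, Alas2, Blvrb, Tfrc, Ermap, Hba-a1, Hbb-bt and Cnrip1. All 9 were found among the 20062 genes of each of 8 tables of comparisons between groups of cells. The cells were purified hematopoietic stem cells (HSC), the bone marrow cells that give rise to all blood lineages, sorted from mice carrying Gfp-Lc3, which marks autophagosomes with a green fluorescent protein. The 4 samples were 2 labelled old and 2 labelled young, all taken at steady state without further treatment. For the droplet assay the design text gives 2 replicates per age and the extraction protocol 1 loaded sample per condition, so which samples stand behind the tables is not settled. The sources used here give no exact age, strain or sex. The tables name 7 clusters, c1 to c7, each set against the cells outside it, and c1 against c2. They hold no sample and no age, so old and young cells were not compared here.

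Developing red cells make hemoglobin from alpha and beta globin chains and heme. Iron for heme enters on transferrin through the transferrin receptor, heme synthesis starts with an aminolevulinate synthase made by Alas2 in erythroid cells, and biliverdin reductases act on the products of heme breakdown. Carbonic anhydrases interconvert carbon dioxide and bicarbonate, which red cells use for gas transport. In the marrow this program is switched on as progenitors commit to the erythroid lineage under GATA1 and KLF1, and stem cells are known for low levels of most of it.

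The clusters differed in their cell cycle and lineage markers. Of the 10 stem cell markers, 7 were called higher in c1 and 8 in c2, while 8 were called lower in c3 and 8 in c4, where a call means an adjusted p-value under 0.05 in the authors' deposited table. Of 12 S phase genes, 12 were called higher in c3 and 11 in c4, and all 12 G2/M genes were called higher in c4 and in c5, as were 11 of 12 neutrophil and monocyte genes in c5, 7 of 12 in c6, and 7 of 9 B cell genes in c7. Solved from the tables, the clusters held 40.7% (c1), 34% (c2), 12% (c3), 10.2% (c4), 1.68% (c5), 0.984% (c6) and 0.35% (c7) of the cells. Fold changes are log2 values limited to -4 and 4, so a value at a limit is a bound, of 16-fold or more. No standard error or cell number is given, so fold changes have no interval. If the p-values took cells as their unit, they describe these cells and not animals, and if these genes helped to draw the clusters, the p-values are no independent test.

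Of the 9 erythroid effector genes, Car1, Ermap, Alas2, Hba-a1 and Hbb-bt had their highest reconstructed level in c3. Alas2, with a very low mean, was not called there. The level of Hba-a1 over that in all cells was 3.16 in c3 and 3.13 in c7, which cannot be told apart. In the authors' deposited table of c3 against the other cells, 7 of the 9 were called higher, where 18.1% of all genes were, and 1 was called lower, where 10.2% were. The members were chosen with earlier results of these data known, so such counts are a description and no independent evidence. The median log2 fold change of the 9 was 1.22 in c3, against -0.04 over all genes of the authors' deposited table. In c4 2 members were called higher, where 24.3% of all genes were, and 1 lower, where 10.6% were, with a median of -0.66 against 0.01 over all genes in the authors' deposited table. In c1 6 members were called lower (all genes 29.7%) and 1 higher (13.3%), and in c2 3 were called lower (21.4%) and 3 higher (15.9%), in the authors' deposited tables of those clusters. The medians of the 9 were -0.70 in c1 and -0.43 in c2, against -0.14 and -0.06 over all genes in the authors' deposited tables. The median over genes at or above the median expression was 0.19 in c4, -0.24 in c5, -2.24 in c6 and -0.92 in c7, and lay within 0.12 of 0 in the other cluster tables. Taking these medians off changed the direction of no called member. The plot of fold changes by gene and cluster shows all of these values.

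**Figure D1:**
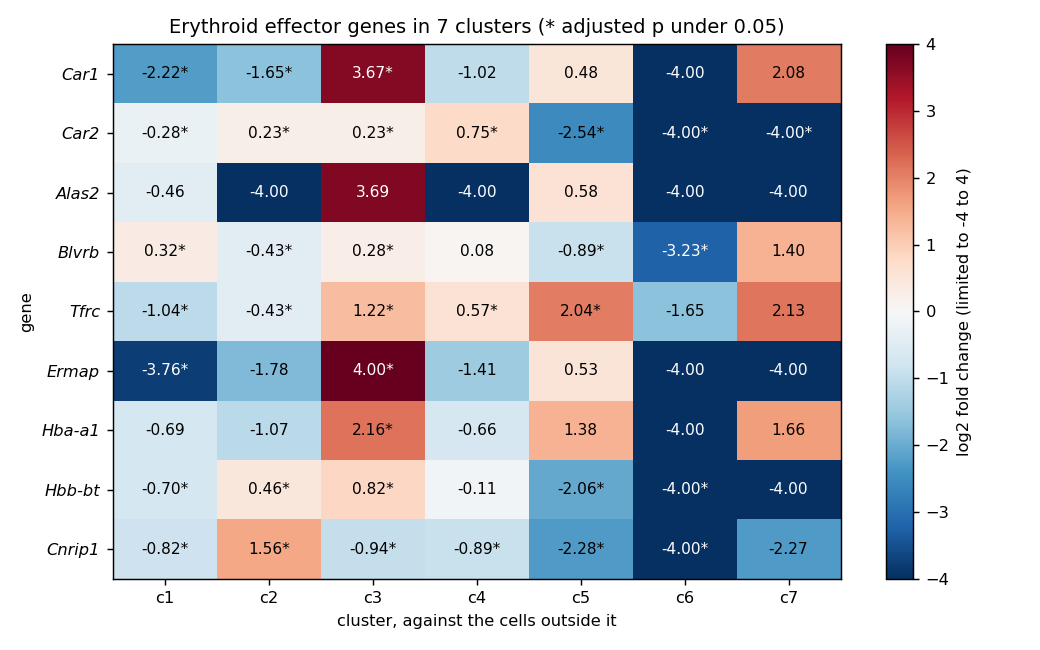
Log2 fold change of each of the 9 genes (rows) in each cluster against the cells outside it (columns), as deposited by the authors; an asterisk marks an adjusted p under 0.05. Car1, Ermap, Hba-a1 and Tfrc are called higher in c3 at 1.22 or more, Alas2 reaches 3.69 there without a call, and Cnrip1 is called higher in c2 alone, at 1.56.

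Car1, the carbonic anhydrase typical of maturing red cells, was called higher in c3 and lower in c1 and c2. Its log2 fold changes in the authors' deposited tables were -2.22 in c1, -1.65 in c2, 3.67 in c3, -1.02 in c4, 0.48 in c5, -4 in c6 and 2.08 in c7. The rise in c3 (12.7-fold, adjusted p = 0.000467) and the falls in c1 (adjusted p = 0.00181) and c2 (adjusted p = 0.035) were called in the authors' deposited tables, and the other 4 were not. Combining fold changes with the share of cells gave each gene's level in a cluster over its level in all cells. On that scale Car1 stood at 5.28 in c3 and 4.18 in c7, then at 1.38 in c5, 0.519 in c4, 0.416 in c2 and 0.315 in c1, and at most 0.0631 in c6. By the same reckoning 63.7% of all Car1 expression lay in the 12% of cells in c3.

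Car2, a carbonic anhydrase already present in stem cells and early progenitors, differed far less between the large clusters. In the authors' deposited tables it was -0.28 in c1, 0.23 in c2, 0.23 in c3, 0.75 in c4, -2.54 in c5, -4 in c6 and -4 in c7, and all 7 were called. Its highest level was in c4, at 1.57 times that in all cells, and not in c3 at 1.15, which lay close to c2 at 1.11. The clusters rich in neutrophil or B cell genes stood lowest, with 0.175 in c5 and at most 0.0631 in c6 and 0.0627 in c7. The adjusted p-values of Car2 in the authors' deposited tables ran from 2.7e-07 in c3 to 7.71e-65 in c4. The 2 genes lie near each other on GRCm38 chromosome 3, Car1 from 14766216 to 14808368 on the minus strand and Car2 from 14886273 to 14900770 on the plus strand. Of 15 carbonic anhydrase genes in the tables, 4 were called higher in c3 and 1 lower, where 18.1% and 10.2% of all genes were. In c4 4 were called higher and 2 lower, near the 24.3% and 10.6% of all genes. The list medians were 0.23 in c3 and -0.63 in c4 in the authors' deposited tables, with only 4 of the 15 genes at or above the median expression. Besides the members, the called genes included Car3 at 0.61 in c3 and 0.61 in c4, and Car9 at 0.87 in c4, in the authors' deposited tables.

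Alas2, the erythroid form of the first and rate-limiting enzyme of heme synthesis, had very uneven levels and no call. Its log2 fold changes in the authors' deposited tables were -0.46 in c1, -4 in c2, 3.69 in c3, -4 in c4, 0.58 in c5, and -4 in both c6 and c7. The adjusted p in the authors' deposited table of c3 was 0.243, and its mean over all cells was only 0.00291 per 10000, on a scale where the means of all genes sum to 10000. Its level in c3 was 5.32 times that in all cells, against 1.48 in c5, 0.817 in c1, at most 0.0917 in c2 and at most 0.0691 in c4. At least 61.7% of its summed expression thus fell in c3, a share that rests on this low mean and on no call.

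Alas1, the form of the same enzyme used in most other tissues, had another pattern. It was called higher in c5 at 2.56 and in c6 at 1.85, and lower in c3 at -0.34 and c1 at -0.36, in the authors' deposited tables. Other enzymes of heme synthesis were higher in c3. Of the 14 heme synthesis genes 10 were called higher in c3 and 1 lower, with a median of 0.60 in the authors' deposited table. Alad, the second enzyme, stood at 0.99, and Tmem14c, which moves a heme precursor through the mitochondrial membrane, at 0.85 in the authors' deposited table of c3. In c4 6 of the 14 were called higher and none lower, the list median being 0.30, and Tmem14c stood at 0.87 and Alad at 0.60 in the authors' deposited table. In c2 Tmem14c at -0.76 and Alad at -0.52 were called lower in the authors' deposited table. The background for the counts of this and the later lists in c1 to c4 is that given above for each cluster. In c5 2 of the 14 were called higher, where 7.17% of all genes were, and 1 lower, where 9.30% were. Tmem14c was called higher there at 1.03 and Alad lower at -0.91 in the authors' deposited table. The summed level of the 14 genes was 1.49 times that in all cells in c5, 1.46 in c3 and 1.37 in c4, so it was not particular to c3.

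Tfrc, the transferrin receptor that brings iron into dividing and hemoglobin-making cells, was called higher in c3, c4 and c5. Its highest level was in c7, without a call. Its log2 fold changes in the authors' deposited tables were -1.04 in c1, -0.43 in c2, 1.22 in c3, 0.57 in c4, 2.04 in c5, -1.65 in c6 and 2.13 in c7. The values in c1 to c5 were called, with adjusted p-values in the authors' deposited tables of 3.71e-14, 0.00745, 2.16e-08, 0.0162 and 2.45e-05, and those in c6 and c7 were not. Relative to all cells its level was 4.33 in c7, 3.9 in c5, 2.01 in c3, 1.41 in c4, 0.814 in c2, 0.615 in c1 and 0.321 in c6. Unlike Car1, Tfrc thus had a higher level in c5, where 11 of 12 neutrophil and monocyte genes and all 12 G2/M genes were called higher, than in c3, a difference that was not tested. The summed level of the 12 S phase genes was 21.2 per 10000 in c3, 16.3 in c4 and 8.22 in c5. It was 2.82 in c1, 3.25 in c2 and 2.53 in c7, and its part in the Tfrc values was not tested.

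Among 15 genes of iron uptake, storage and regulation, 8 were called higher and 1 lower in c3, and 8 higher and 2 lower in c4, with medians of 0.23 and 0.35 in the authors' deposited tables. Aco1, which doubles as an iron sensor, stood at 0.55 and the iron transporter gene Slc11a2 at 0.48 in c3, while Ftl1, the light chain of the iron store ferritin, fell by 0.80 in c4 in the authors' deposited tables. Tfr2, the second transferrin receptor, was not called in c3 at 0.11, and was lower in c5 at -1.67 in the authors' deposited tables. Slc40a1, the iron exporter, was called higher in c5 at 3.46 and in c6 at the limit of 4 in the authors' deposited tables, and the heme oxygenase gene Hmox1 at 2.15 and 2.33, both named after their values were seen.

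Blvrb, a biliverdin and flavin reductase abundant in red cells, varied little among c1 to c4 and was called in opposite directions in c1 and c2. In the authors' deposited tables it was 0.32 in c1, -0.43 in c2, 0.28 in c3, 0.08 in c4, -0.89 in c5, -3.23 in c6 and 1.40 in c7. All of these except c4 (adjusted p = 0.453) and c7 (adjusted p = 0.0745) were called in the authors' deposited tables. Its relative level was 2.62 in c7, 1.18 in c3, 1.13 in c1, 1.05 in c4, 0.815 in c2, 0.543 in c5 and 0.108 in c6. Blvra, the other biliverdin reductase gene, was higher in both c3 at 0.70 and c4 at 0.89, and lower in c1 at -0.42 and c2 at -0.36, in the authors' deposited tables. In the list of 7 genes of heme breakdown and transport 2 were called higher in c3 and none lower, and 2 higher and 1 lower in c4, with medians of 0.08 and 0.04 in the authors' deposited tables.

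Ermap, an erythroblast membrane protein that carries a blood group in humans, was called higher at the upper limit in c3 and lower in c1. Its log2 fold changes in the authors' deposited tables were -3.76 in c1, -1.78 in c2, 4 in c3, -1.41 in c4, 0.53 in c5, and -4 in c6 and c7. Only the c1 value (adjusted p = 0.00108) and the c3 value at the upper limit (adjusted p = 0.000622) were called in the authors' deposited tables. Its level in c3 was at least 5.71 times that in all cells, against 0.385 in c2, 0.403 in c4 and 0.119 in c1. At least 73.7% of its summed expression came from c3, although its mean over all cells was only 0.00613 per 10000.

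Other red cell membrane genes moved with Ermap in c3. Of 20 membrane and blood group genes 12 were called higher in c3 and none lower, and the list median was 1.54. In c4 4 were called higher and none lower, and the median was -0.05, in the authors' deposited tables. The water channel gene Aqp1 stood at 1.32 and the adhesion molecule gene Icam4 at 0.94 in c3, and at 1.48 and 1.07 in c4, in the authors' deposited tables. Some genes of the list with lower expression, named after their values were seen, set c3 and c4 further apart, but not all did. Tmod1 went the other way, at 0.35 and not called in c3 and at 1.54 and called higher in c4. Epb42 at 0.28 and Dmtn at 1.04 were not called in c3, in the authors' deposited tables. The Rh antigen gene Rhd was at 4 in c3 (adjusted p = 0.000809) and -4 in c4 (adjusted p = 0.282), and the spectrin gene Sptb at 4 in c3 (adjusted p = 0.00573) and 0.02 in c4 (adjusted p = 0.992), in the authors' deposited tables. Of 11 erythroid regulators 6 were called higher and 3 lower in c3, and 6 higher and 2 lower in c4, and their summed level was 0.868 and 0.872 times that in all cells. Klf1 stood at 2.59 in c3 and 1.37 in c4, the erythropoietin receptor gene Epor at 1.37 and 1.12, and Gata1 at 1.75 and 3.11, in the authors' deposited tables. Lmo2 at -0.39 in c3 and -0.47 in c4, Nfe2 at -0.28 and -0.27, and in c3 Gata2 at -0.28 were called lower in the authors' deposited tables. Klf1 and Gata1 were likewise named after their values were seen.

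**Figure D2:**
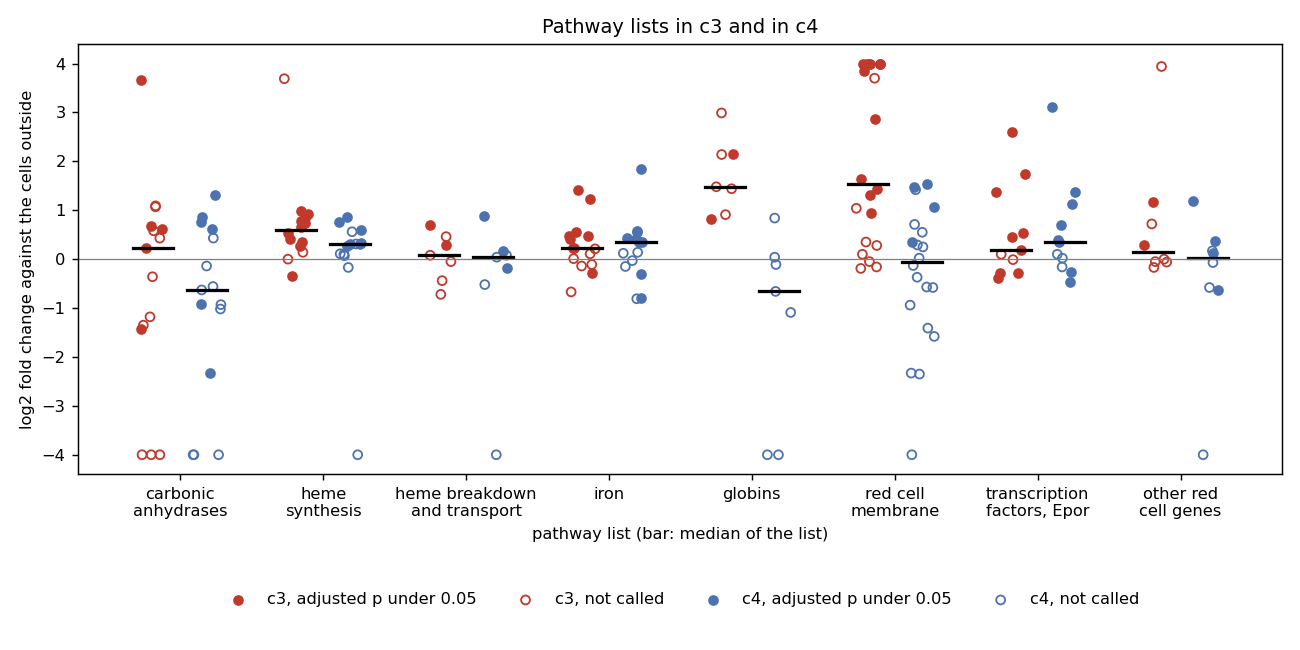
Log2 fold change of every gene of 8 pathway lists in c3 (red, left of each pair) and c4 (blue, right), each against the cells outside the cluster, as deposited by the authors; filled points have an adjusted p under 0.05 and black bars are list medians. The globin and membrane lists have medians of 1.48 and 1.54 in c3, above their c4 medians of -0.66 and -0.05, while the heme synthesis list has 0.60 and 0.30 and the iron list 0.23 and 0.35.

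Both globin members were called higher in c3, had like values in c1, and lay on opposite sides of 0 in c2, c5 and c7. Hba-a1, an alpha globin gene, was -0.69 in c1, -1.07 in c2, 2.16 in c3, -0.66 in c4, 1.38 in c5, -4 in c6 and 1.66 in c7 in the authors' deposited tables. Only the c3 value was called, a 4.47-fold difference with an adjusted p of 0.0282 in the authors' deposited table. Hbb-bt, a beta globin gene, was -0.70 in c1, 0.46 in c2, 0.82 in c3, -0.11 in c4, -2.06 in c5, and -4 in c6 and c7 in the authors' deposited tables. All but c4 and c7 were called. The highest level of both was in c3, at 3.16 times that in all cells for Hba-a1 and 1.61 for Hbb-bt. The next levels differed: c7 at 3.13 and c5 at 2.53 for Hba-a1, and c2 at 1.22 and c4 at 0.933 for Hbb-bt, which had 0.242 in c5 and at most 0.0627 in c7. The Hba-a1 values in c5 and c7 were not called, with adjusted p-values of 0.704 and 0.964 in the authors' deposited tables.

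Each of these genes has a close copy. The aligned transcripts of Hba-a1 and Hba-a2 were identical at 537 of 538 bases, so reads could be split between them and the pair is uncertain as single genes. Hba-a2 stood at 2.14 in c3, like Hba-a1, but was not called there (adjusted p = 0.101 in the authors' deposited table). The transcripts of Hbb-bt and Hbb-bs were identical at 580 of 626 aligned bases, or 92.7%. Hbb-bs stood at 0.91 in c3 and -0.07 in c1, -0.45 in c2 and -0.04 in c5 in the authors' deposited tables, with no call in any cluster. Its c3 value was close to that of Hbb-bt, while in c2 the copies lay on opposite sides of 0 and in c5 Hbb-bt alone was far below. Of the 7 globin genes in the tables, 2 were called higher in c3 and none in c4, with medians of 1.48 and -0.66 in the authors' deposited tables. Of 11 mature red cell genes, globins included, 5 were called higher in c3 and 2 in c4, and their summed level was 4.42 per 10000 in c3, 2.56 in c4, 2.01 in c1, 2.1 in c2, 1.93 in c5, 0.23 in c6 and 1.55 in c7. Whether RNA from red cells outside the sorted cells had a part in the globin values was not tested.

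**Figure D3:**
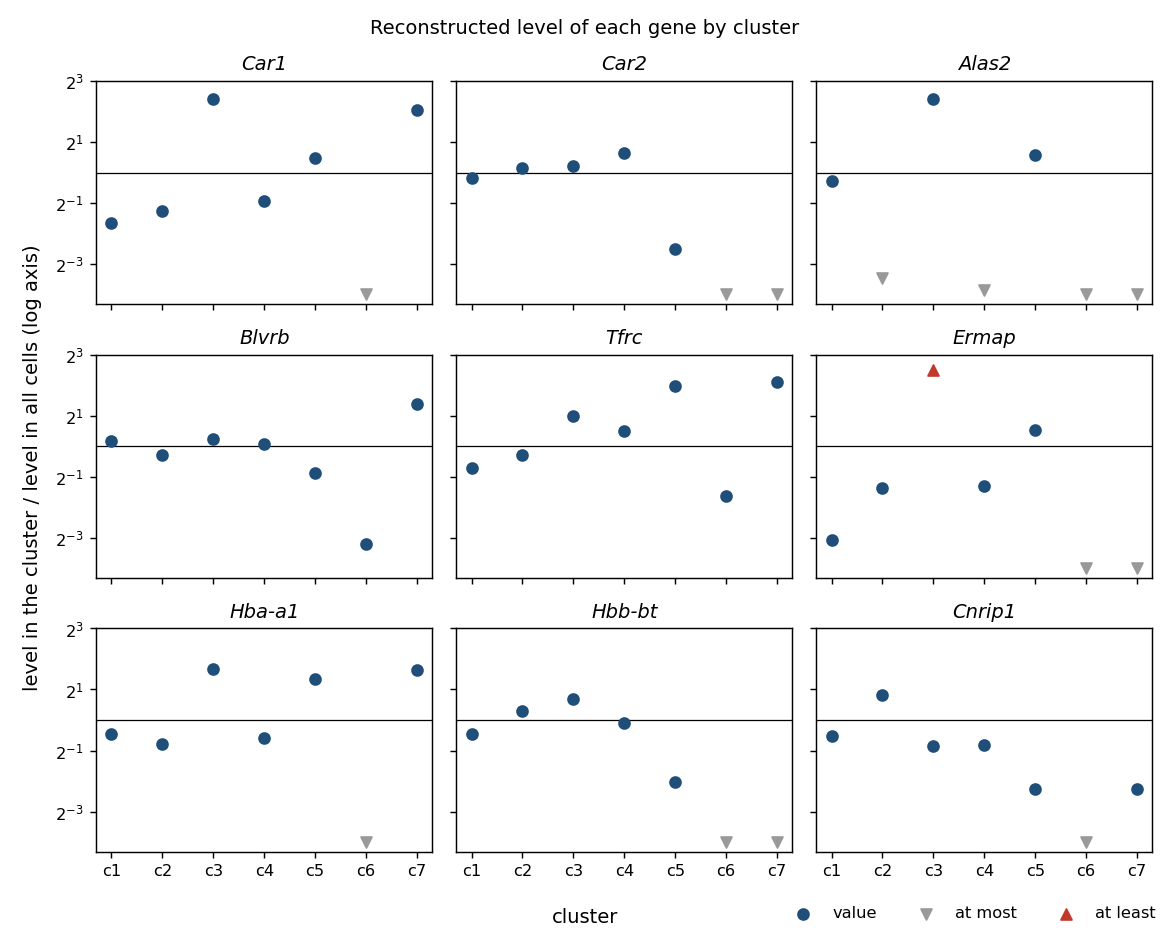
Level of each gene in a cluster divided by its level in all cells (log axis), reconstructed from the deposited fold changes and the estimated share of cells; grey and red triangles are upper and lower bounds from fold changes at the limit. Car1, Alas2 and Ermap reach 5.28, 5.32 and at least 5.71 in c3, Car2 stays between 0.887 and 1.57 in c1 to c4, and Cnrip1 peaks in c2 at 1.77.

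Cnrip1, which encodes a cytoplasmic partner of the cannabinoid receptor, was called higher in c2 and lower in c1 and c3 to c6. In the authors' deposited tables it was -0.82 in c1, 1.56 in c2, -0.94 in c3, -0.89 in c4, -2.28 in c5, -4 in c6 and -2.27 in c7, all called except c7 (adjusted p = 0.313). It was thus high in c2, where the adjusted p in the authors' deposited table was 4.99e-88, and the one member called lower in c3. Its levels were 1.77 times that in all cells in c2, 0.689 in c1, 0.566 in c4, 0.554 in c3, 0.208 in c5, 0.208 in c7 and at most 0.0631 in c6. Neighbours in this order such as c3 and c4 cannot be told apart without a standard error, for this and the other genes. By these levels c2, with 34% of the cells, held 59.6% of Cnrip1 expression.

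The share of each gene's expression that came from c3 sorted the members. It was at least 73.7% for Ermap, 63.7% for Car1 and at least 61.7% for Alas2, then 38.1% for Hba-a1, 24.2% for Tfrc and 19.2% for Hbb-bt. Blvrb at 14.1% and Car2 at 13.3% lay near the 12% of cells in c3, and Cnrip1 at 6.57% below it. The summed level of all 9 genes was 11.3 per 10000 in c3 and 12.5 in c4, of which Car2 alone gave 7.71 and 10.5.

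**Figure D4:**
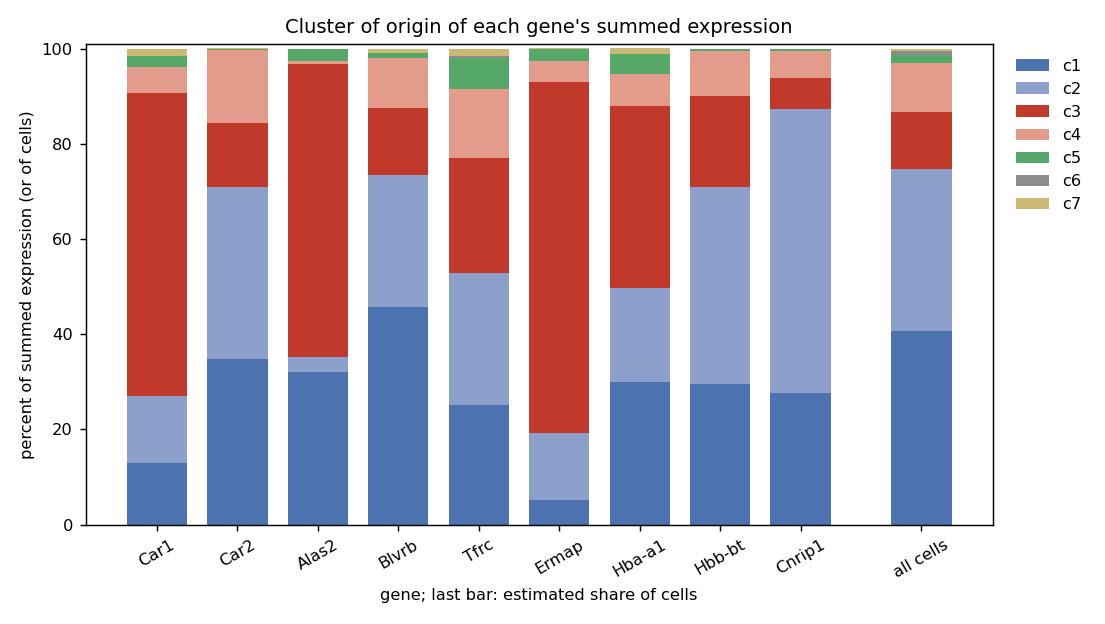
Percent of each gene's summed expression that came from each cluster, with the estimated share of cells in the last bar. The red c3 segment covers at least 61.7% for Ermap, Car1 and Alas2, against 12% of the cells, and the c2 segment covers 59.6% for Cnrip1.

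The promoters of Ermap, Blvrb, Tfrc, Hba-a1 and Hbb-bt are shown because these members were called higher in c3 together, that of Alas2 for its value of 3.69 there in the authors' deposited table, and that of Hbb-bs as the copy of Hbb-bt. Blvrb and Tfrc have several starts, of which the first is shown. The sequences are the 250 bases before the RefSeq start on GRCm38.p6, written 5′ to 3′ on the gene's strand, with capitals for GATA letters (AGATAA or TGATAA) and CACCC letters on either strand. These are the core letters bound by GATA factors and by KLF1 in erythroid cells. No matches of the 2 motifs overlap in the sequences shown.
Ermap (chr4:119189996-119190245, minus strand): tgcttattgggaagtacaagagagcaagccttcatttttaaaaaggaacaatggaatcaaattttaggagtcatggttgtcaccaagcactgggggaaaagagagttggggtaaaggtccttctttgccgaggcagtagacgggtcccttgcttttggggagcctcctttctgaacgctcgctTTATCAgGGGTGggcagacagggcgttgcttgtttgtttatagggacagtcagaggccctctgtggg
Blvrb (chr7:27447728-27447977, plus strand): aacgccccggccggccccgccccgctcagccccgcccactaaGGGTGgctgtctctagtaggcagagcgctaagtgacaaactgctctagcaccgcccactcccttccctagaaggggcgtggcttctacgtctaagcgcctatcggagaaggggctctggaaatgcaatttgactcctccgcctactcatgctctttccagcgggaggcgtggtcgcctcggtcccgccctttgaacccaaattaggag
Tfrc (chr16:32608646-32608895, plus strand): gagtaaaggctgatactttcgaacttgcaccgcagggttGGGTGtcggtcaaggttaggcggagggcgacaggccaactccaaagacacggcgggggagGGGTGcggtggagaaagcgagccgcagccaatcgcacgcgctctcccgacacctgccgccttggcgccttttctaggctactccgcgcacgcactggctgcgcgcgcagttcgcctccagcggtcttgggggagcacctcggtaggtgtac
Alas2 (chrX:150547167-150547416, plus strand): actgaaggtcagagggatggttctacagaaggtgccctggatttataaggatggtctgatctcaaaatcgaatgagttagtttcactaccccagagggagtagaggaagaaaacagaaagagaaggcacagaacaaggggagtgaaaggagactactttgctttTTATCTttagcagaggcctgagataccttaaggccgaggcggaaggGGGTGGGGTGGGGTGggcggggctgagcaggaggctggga
Hba-a1 (chr11:32283422-32283671, plus strand): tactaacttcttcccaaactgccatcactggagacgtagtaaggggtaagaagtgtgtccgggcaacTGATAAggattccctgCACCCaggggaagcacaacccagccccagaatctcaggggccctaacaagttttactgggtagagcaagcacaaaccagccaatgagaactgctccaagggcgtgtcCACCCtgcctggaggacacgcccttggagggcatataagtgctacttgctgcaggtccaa
Hbb-bt (chr7:103813924-103814173, minus strand): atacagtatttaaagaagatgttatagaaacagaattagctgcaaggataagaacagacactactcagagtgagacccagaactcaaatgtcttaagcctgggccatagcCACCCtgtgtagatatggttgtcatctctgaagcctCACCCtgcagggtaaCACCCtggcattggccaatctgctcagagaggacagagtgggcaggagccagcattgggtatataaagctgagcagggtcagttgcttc
Hbb-bs (chr7:103827929-103828178, minus strand): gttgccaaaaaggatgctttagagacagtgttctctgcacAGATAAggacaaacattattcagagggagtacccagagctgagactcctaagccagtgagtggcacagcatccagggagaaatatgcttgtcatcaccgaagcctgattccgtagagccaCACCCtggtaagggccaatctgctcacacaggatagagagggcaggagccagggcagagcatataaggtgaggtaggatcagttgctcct
Of the 7 members with an entry (Ermap, Blvrb, Tfrc, Cnrip1, Alas2, Hba-a1 and Hbb-bt), 3 held GATA letters: Ermap, Alas2 and Hba-a1. These members have 9 promoters, of which 3 held GATA letters, against 16.6% of 32851 promoters of the same length. CACCC letters stood in 8 of the 9, all but that of Cnrip1, against 52.0% of all promoters, and both motifs in 3 of the 9, against 7.11% of all. In Ermap the GATA letters began 67 and the CACCC letters 60 bases before the start. The Hbb-bs window held GATA letters and the Hbb-bt window did not, and the 2 windows were identical at 175 of 244 aligned bases, while those of Hba-a1 and Hba-a2 were identical at all 247 aligned bases. A match is a description of these letters and not a bound site.

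The clusters c1 and c2, both with raised stem cell markers, were also compared directly. For c1 set against c2 in the authors' deposited table, 4 of the 9 were called lower in c1, where 22.0% of all genes were, and 1 higher, where 15.4% were. The median of the 9 was -0.40, against -0.03 over all genes in the authors' deposited table. Cnrip1 fell by 1.40 (adjusted p = 9.29e-88), Hbb-bt by 0.74 (5.39e-11), Tfrc by 0.41 (0.0172) and Car2 by 0.32 (6.83e-46) in c1 against c2 in the authors' deposited table. Blvrb was 0.48 higher in c1 (adjusted p = 1.56e-33) in the authors' deposited table. Ermap at -1.70, Car1 at -0.40, Hba-a1 at 0.34 and Alas2 at the limit of 4 were not called, with adjusted p-values from 0.285 to 0.599 in the authors' deposited table. Alas2 had the largest of these values and a mean of 0.00291 per 10000.

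Around the members, c1 and c2 differed in heme and iron genes in both directions. Of the heme synthesis genes 4 were called higher in c1 and 2 lower, with Tmem14c at 0.38 and Alas1 at -0.24 in the authors' deposited table. Among the iron genes 4 were called higher and 7 lower, including Ncoa4, which carries ferritin to autophagy, at -0.71 and, named after its value was seen, Slc40a1 at -0.91 in the authors' deposited table. Cat, the catalase gene, stood at -1.03 and Aqp1 at 0.86 in the authors' deposited table. The beta globin copies again differed, with Hbb-bs at 0.27 and not called (adjusted p = 0.265), while Hba-a2 stood at 0.81 (adjusted p = 0.311) in the authors' deposited table. Xist, the RNA of the inactive X chromosome, was at the lower limit of -4 in c1 against c2 in the authors' deposited table. Against the cells outside each cluster, Xist was at -4 in c1 and 3.22 in c2, both called, in the authors' deposited tables. No sample or sex is given for the cells, so differences between c1 and c2 cannot be told apart from differences between animals. The part of Xist or of the animals in the member values was not tested.

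**Figure D5:**
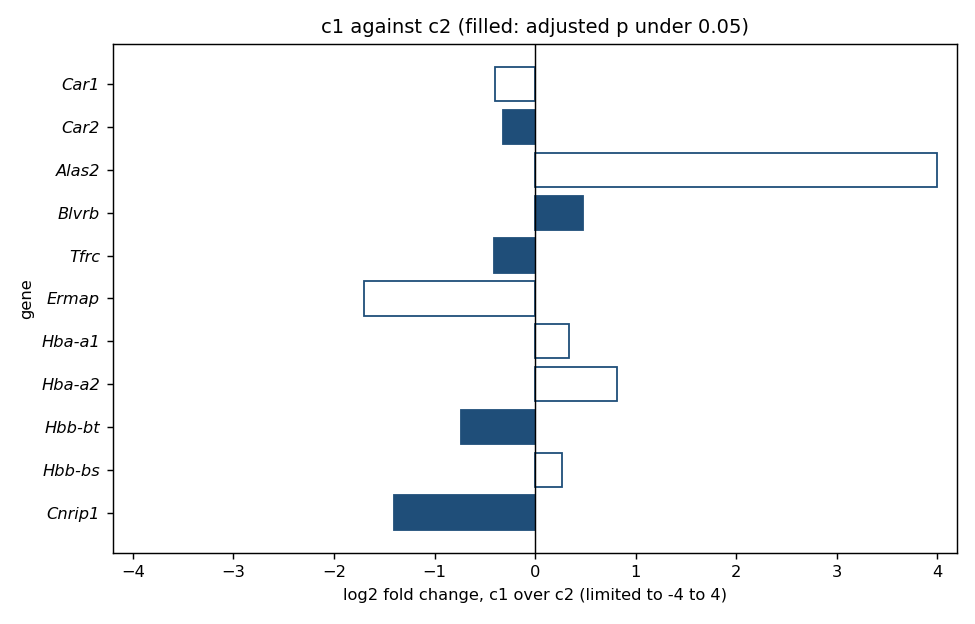
Log2 fold change of c1 over c2 for the 9 genes and the copies Hba-a2 and Hbb-bs, as deposited by the authors; filled bars have an adjusted p under 0.05. Cnrip1 at -1.40 and Hbb-bt at -0.74 are the lowest called values, Blvrb at 0.48 is the one called above 0, and Alas2 at the limit of 4 is not called.

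Calls among the members ran mostly downward in the small clusters c5 to c7. In c5 4 of the 9 were called lower, where 9.30% of all genes were, and 1 higher, where 7.17% were, and the members' median was 0.48 against -0.52 over all genes in the authors' deposited table. In c6 4 were called lower, where 35.7% of all genes were, and none higher, where 5.20% were, in the authors' deposited table. There the median of all genes was itself at the limit of -4, and of genes at or above the median expression at -2.24, so a low value in c6 is not particular to these genes. In c7 Car2 alone was called lower, where 5.16% of all genes were, and none higher, where 1.02% were, in the authors' deposited table. The erythroid regulators fell too in c5, with 8 of 11 called lower and none higher, among them Gfi1b at -2.27, Lmo2 at -2.02 and Gata2 at -1.80 in the authors' deposited table.

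Genes of like pattern were sought among 9637 genes at or above the median expression, by the root mean square difference of log2 fold change over the 7 clusters. Hba-a1 was the nearest to Car1, at 0.93, followed by Rnf157 at 1.15 and Ung, a uracil glycosylase gene, at 1.17. Near Ermap, among these expressed genes, were the replication genes Cdt1 at 1.27 and Dtl at 1.40. Nearest to Alas2 were Hba-a2 at 1.62, Alkbh2 at 1.78 and Ung at 1.81. Ermap and Alas2 themselves lay below the median expression, and scarce red cell genes could not be found by this search. Among those left out, named after their values were seen, were Add2 at 4, Tspo2 at 3.84 and Slc4a1 at 3.70 in c3 in the authors' deposited table. Car2 lay closest to Ctxn1 at 0.18, Gfi1b at 0.24 and Gnb4 at 0.25. Hbb-bt lay closest to Arhgef40 at 0.19, Rhobtb3 at 0.22 and Lrch2 at 0.23, and differed from Car2 by 0.47. By this measure it was nearer to Car2 than to its own copy Hbb-bs, at 1.78. Hbb-bt and Car2 were both at the limit of -4 in c6 and c7, where Hbb-bs stood at -2.45 and -0.20. Neither copy was called in c7. In the authors' deposited tables Hbb-bt and Hbb-bs stood at 0.82 and 0.91 in c3 and -0.11 and 0.04 in c4. They stood further apart at -0.70 and -0.07 in c1 and 0.46 and -0.45 in c2. Near Cnrip1 lay Myl10 at 0.55 and Epb41l4b at 0.55. Tfrc lay closest to Erp29 at 0.60, Ctdp1 at 0.68 and Tgfb1 at 0.71, Blvrb to Klc2 at 0.34, Dgkq at 0.36 and Farsb at 0.37, and Hba-a1 to Recql at 0.79, Prr5 at 0.83 and Ltv1 at 0.88. These distances are over 7 comparisons that share cells, and many genes have values at the limit in c6 and c7, which brings them closer together.

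Markers of other cells were read in c3 as well. None of 9 markers of macrophages that surround erythroblasts was called in c3, and their summed level there was 0.0682 per 10000, against 0.432 in c5. None of 5 mast cell and basophil genes was called in c3 either, with a summed level of 0.04 per 10000, and 1 of 9 B cell genes was called, lower. In c4 2 of these 5 were called higher and none lower, Cpa3 at 1.85 and Fcer1a at 3.32 in the authors' deposited table. None of the macrophage, mast cell and basophil genes reached the median expression, so a missing call does not show that such cells were absent. Of 12 neutrophil and monocyte genes 10 were called lower in c3, while 6 of 9 megakaryocyte genes were called higher and 1 lower, with a median of 0.61 in the authors' deposited table. In c4 5 of these 9 were called higher and 1 lower, with a median of 0.59 in the authors' deposited table. All 12 S phase genes were called higher in c3, with a median of 2.48 in the authors' deposited table, and the part of the cell cycle in the member values was not tested.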

How the data were processed

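The labels list 4 samples of single HSC, 2 old and 2 young, and the deposited files are 8 tables of comparisons between clusters, with no sample column. The tools HTSeq, Scanpy and GSNAP and the build GRCm38.p4 are named, without their roles, per the submitters' processing notes. The sources used here do not give the assay, clustering, cell and doublet filters or test behind the tables, and the depth per cell is unknown. The authors deposited log2 fold changes limited to -4 and 4, a mean expression on a log2 scale (2 raised to it summed to 10000, against 34992 for a natural log, and 8 genes held an error text), and p-values with adjusted p-values. The deposited adjusted p-values equal a Benjamini-Hochberg adjustment over 20062 genes to within 4.44e-15.

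A gene was called at an adjusted p under 0.05, and no new test was made. Shares of cells were solved by non-negative least squares (SciPy 1.17.1), so that cluster levels average to 1 over the 990 genes with a log2 mean between -5 and -3 and no value at a limit. A cluster's level over all cells is the fold change divided by the sum of the fold change times the share and 1 minus the share. Levels weighted by shares summed to 1.04 for Car2, 0.931 for Ermap and 1.03 for Alas2 in place of 1, and lay between 0.995 and 1.01 for the other members. The solver was tested on simulated data with shares set close to those solved here and very little noise. That test does not show how well the shares are recovered from noisier values. Members and lists were chosen with earlier results of these data known. Named genes were the members, up to 4 called genes per list and table at or above the median expression by size of change, the 3 nearest genes per member, Hba-a2 and Hbb-bs, and a few of them are not reported here. Of the lists, Car4, 4 globin-list genes (Hba-x, Hbb-bh2, Hbq1a and Ahsp), Gp6, Prss34 and Cma1 were not analysed here. Positions are from GENCODE M21 and promoters from RefSeq. Alternatives were a stricter p, a minimum fold change, centring, the adjustment over expressed genes, other share estimates, the rebuilt c1 against c2 values and a longer promoter window.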

Additional observations from a re-analysis of the deposited data

How the results depend on the processing

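No called value changed direction under the alternatives run. Calls were tested at an adjusted p under 0.01, with an absolute log2 fold change of 1 as the minimum, and with p adjusted over genes at or above the median expression. With the minimum fold change the members called higher were 0 in c1, 1 in c2, 4 in c3, 0 in c4 and 0 in c1 against c2, and those called lower were 3 in c1, 1 in c2, 0 in c3, 0 in c4 and 1 in c1 against c2. The other pathway genes called in either direction were then 11 in c1, 10 in c2, 16 in c3, 10 in c4 and 2 in c1 against c2, against 49, 42, 45, 39 and 36 without it, since this setting removes small changes by its own construction. At an adjusted p under 0.01, 1 member was called higher in c4, and the Hba-a1 call in c3 and the Car1 call in c2 were among 5 that were lost. Adjusted over expressed genes alone, 1 member was called higher in c7, namely Blvrb, and Hba-a1 was called lower in c2. The Benjamini-Hochberg adjusted p-values of the deposited test were then 0.039 and 0.0498. Centring on the median of expressed genes leaves each adjusted p as it is, so it bears on direction alone, and no called value changed sign. Other estimates of the cell shares moved the level of every member by less than 10 percent. The c1 against c2 value of Alas2 rebuilt from the 2 cluster tables was 3.15, against the limit of 4.00, and the other 10 values did not move beyond the set tolerance. No paired analysis was possible because the tables hold no values per sample, and leaving out each replicate was not run for the same reason. Depth per cell is unknown, so for Alas2 and Ermap, with means of 0.00291 and 0.00613 per 10000, a missing call does not show that levels were alike.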
